A study of Homo sapiens with 12 samples.

Results

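The genes described here are 46 effectors that cells switch on in response to interferon, among them the IFIT, OAS and MX genes. They were taken as a list of gene symbols and matched to the probe sets of the deposited array table, with the probe sets of a gene averaged. Of the 46 listed genes, 45 were measured, each by 1 probe set, and they make up 45 of the 18377 genes tested. GBP1 was the exception, because it was named only on a probe set that also names GBP1P1 and GBP3. The cells were HT29, an established human colon adenocarcinoma line that is sensitive to methotrexate, an antifolate. They were studied as 1 control group, taken as 0 h, and 3 groups exposed to 70 nM methotrexate for 8, 24 and 48 h, with 3 arrays in each group. The labels name no transgene and no other agent. Gene expression was read on Affymetrix human gene arrays, 12 in all. The questions are how far each effector was from control at 8 h, and how much of that difference was gone at 24 and 48 h.

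Interferons are secreted cytokines that signal through cell-surface receptors and JAK kinases to a transcription factor complex called ISGF3, of which IRF9 is a part. ISGF3 binds the interferon-stimulated response element in the promoters of its target genes. The proteins made from these genes detect viral RNA, stop its translation, degrade it, or block the entry and release of virus particles. Epithelial cells, the colon epithelium included, can also express a part of this programme at a low level without infection.

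The promoter windows of the members were read from RefSeq on GRCh38.p14, from 250 bases before to 50 bases after each annotated start, and 39 of the 46 genes had a window in the table used. The core of the response element was searched on both strands as GAAA and GAAA with any 2 bases between them. It was present in 30 of the 39 genes, or 76.9%, against 4.38% of the 27305 genes with a window in the table. The longer form, with CT after the second GAAA, was present in 48.7% of the members against 0.32% of all genes. Each match to the longer form holds a match to the core. The gamma-activated site TTCNNNGAA, which reads the same on both strands, was present in 28.2% against 9.38%. Stretches of 170 bases that end at the start site are shown for genes with different time courses, 5′ to 3′ on the strand of the gene, with capitals for each match to the core on either strand. IFIT1, IFI44L and ISG15 stand for members that were lower than control at all 3 times.
IFIT1 (chr10:89392453-89392622, plus strand): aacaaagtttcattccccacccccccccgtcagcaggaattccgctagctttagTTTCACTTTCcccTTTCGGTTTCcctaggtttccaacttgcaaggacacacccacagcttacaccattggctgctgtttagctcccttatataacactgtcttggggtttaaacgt
IFI44L (chr1:78620278-78620447, plus strand): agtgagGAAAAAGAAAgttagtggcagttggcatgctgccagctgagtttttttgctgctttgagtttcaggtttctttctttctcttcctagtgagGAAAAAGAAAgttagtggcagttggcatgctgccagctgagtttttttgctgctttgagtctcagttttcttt
ISG15 (chr1:1013327-1013496, plus strand): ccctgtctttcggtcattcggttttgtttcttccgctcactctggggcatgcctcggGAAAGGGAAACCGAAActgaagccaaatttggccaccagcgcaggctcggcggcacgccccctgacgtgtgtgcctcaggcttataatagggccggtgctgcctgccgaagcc
IFITM3 and RTP4 are shown because they were no longer lower than control at 48 h.
IFITM3 (chr11:320861-321030, minus strand): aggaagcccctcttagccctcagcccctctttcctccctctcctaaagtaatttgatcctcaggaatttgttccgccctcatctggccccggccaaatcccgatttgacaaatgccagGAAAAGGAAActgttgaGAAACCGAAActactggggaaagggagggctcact
RTP4 (chr3:187368215-187368384, plus strand): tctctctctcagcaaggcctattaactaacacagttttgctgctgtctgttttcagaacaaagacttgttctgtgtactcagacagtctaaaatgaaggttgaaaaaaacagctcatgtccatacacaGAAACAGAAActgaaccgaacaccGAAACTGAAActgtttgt
HERC5, TRIM14 and EPSTI1 are shown because they were not called higher at 48 h than at 8 h.
HERC5 (chr4:88456949-88457118, plus strand): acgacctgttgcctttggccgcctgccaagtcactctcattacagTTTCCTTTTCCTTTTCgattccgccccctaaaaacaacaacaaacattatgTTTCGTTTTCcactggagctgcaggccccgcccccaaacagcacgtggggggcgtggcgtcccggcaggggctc
TRIM14 (chr9:98119223-98119392, minus strand): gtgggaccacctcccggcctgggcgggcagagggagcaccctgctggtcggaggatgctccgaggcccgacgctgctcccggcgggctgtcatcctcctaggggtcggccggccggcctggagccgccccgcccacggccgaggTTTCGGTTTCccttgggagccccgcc
EPSTI1 (chr13:42992242-42992411, minus strand): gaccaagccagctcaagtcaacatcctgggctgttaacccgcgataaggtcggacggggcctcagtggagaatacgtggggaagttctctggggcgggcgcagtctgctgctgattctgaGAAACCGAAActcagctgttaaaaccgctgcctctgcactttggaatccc
ISG20 and LGALS3BP are shown because their differences from control at 8 h were the smallest of the 45.
ISG20 (chr15:88638846-88639015, plus strand): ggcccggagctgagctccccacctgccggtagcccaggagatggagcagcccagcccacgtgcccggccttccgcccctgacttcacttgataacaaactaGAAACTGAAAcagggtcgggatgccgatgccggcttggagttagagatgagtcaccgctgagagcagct
LGALS3BP (chr17:78979924-78980093, minus strand): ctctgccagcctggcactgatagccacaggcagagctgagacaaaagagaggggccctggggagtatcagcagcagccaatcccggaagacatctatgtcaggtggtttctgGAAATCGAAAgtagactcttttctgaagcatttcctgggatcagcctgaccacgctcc
All these stretches hold at least 1 match, and no member without a core match is among the genes shown. The genes shown include members with and without a rise after 8 h. Since all of them hold a match, they cannot show whether a match goes with a rise. In ISG15 and HERC5 a pair of matches overlap. A shorter stretch, from the region between the divergent genes PARP9 and DTX3L, holds 1 match that lies in the promoter windows of both, at chr3:122564332-122564341.
PARP9 (chr3:122564322-122564351, minus strand): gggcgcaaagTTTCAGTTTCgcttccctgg
A match is a description of the letters in the window and not a measured binding site. Among measured members with a window, the median difference from control at 8 h was -1.12 on the log2 scale for the 29 with a core match, with a range of -3.34 to -0.21. It was -1.48 for the 9 without one, with a range of -2.57 to -0.70. The 9 are OAS1, UBE2L6, HERC6, CMPK2, HELZ2, SAMD9L, SP110, IFI35 and XAF1. Between 8 and 48 h the median difference was 0.42 for the 29 with a match, with a range of -0.18 to 1.27. For the 9 without one it was 0.98, with a range of 0.20 to 2.07. The difference between these sets was not tested.

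The deposited values are log2 ratios to the control median of each probe set, so a value of -1 is 2-fold below the control median and absolute levels are not known. The whole table was fitted with limma in one model of 4 group means. A gene was called higher or lower where its p, adjusted by the Benjamini-Hochberg method over all 18377 genes, was under 0.05, and all differences given are on the log2 scale. The fit pools the spread over groups. Over the members the median SD between arrays was 0.12, 0.11, 0.10 and 0.12 in the control, 8 h, 24 h and 48 h groups, and 0.06 to 0.09 over all genes. The labels call the replicates biological without saying how cultures were set up, so the p-values measure the spread between these arrays. No array left untreated for 8, 24 or 48 h was used, so the treatment and the time in culture cannot be told apart. Among the 48 h arrays, replicate 3 was the most distant: its root mean square distance to replicates 1 and 2 over all genes was 0.21 and 0.18, against 0.09 to 0.14 for the other pairs of arrays of a group. Control replicate 2 was the highest of the 3 control arrays in 41 of the 45 members, compared with 29.3% of all genes. Levels of colon epithelial markers could not be checked, since the table holds only ratios. Of 11 such markers, LGALS4 was lower than control at all 3 times and KRT19, KRT20 and CEACAM5 were each higher at 1 or more. Of 10 leukocyte markers, CD68 rose by 0.35, 0.85 and 1.08 and LAPTM5 by 0.41, 1.53 and 2.36 at 8, 24 and 48 h. The other 8, PTPRC and CD3E among them, were not called at any of these times, and none of 8 endothelial and fibroblast markers was called. The part of these markers in the results was not tested. In bulk RNA, fewer cells that express a gene and less RNA per cell cannot be told apart.

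At 8 h the effectors were lower than control almost without exception. Of the 45 measured, 44 fell, none rose and ISG20 had no call, where 12.0% of all genes tested were called lower and 12.1% higher. A fall of at least 2-fold was called for 31 members, where 0.582% of all genes passed that rule. In all 45 members the 3 arrays at 8 h lay below the 3 control arrays, which was so in 17.2% of all genes. The median difference was -1.27 for the members and 0.02 over all genes, and the members ranged from -3.34 for IFI44L to -0.21 for ISG20. LGALS3BP, the smallest of the called differences at -0.26 (SE 0.07, adjusted p = 0.0157), lost its call without control replicate 2 (adjusted p = 0.07) or without 8 h replicate 3 (adjusted p = 0.0602).

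At 24 h, 42 members were lower than control, where 8.02% of all genes were called lower, and 44 had all 3 arrays below the control arrays, where 15.2% of all genes did. RTP4, ISG20 and LGALS3BP had no call. No member was higher, where 8.69% of all genes were. At 48 h, 40 were lower, where 12.3% of all genes were, and the same 40 had all 3 arrays below the control arrays, where 17.9% of all genes did. RTP4 alone was higher, where 13.0% of all genes were. IFITM3, ISG20, IFI35 and LGALS3BP had no call, and their 48 h arrays overlapped the control arrays. The median difference of the members from control was -0.93 at 24 h and -0.64 at 48 h, against 0.02 and 0.01 over all genes. The same 3 control arrays stood on one side of each of these comparisons. By array, the median over the 45 members was 0, 0.13 and -0.02 in the control group, -1.19, -1.32 and -1.32 at 8 h, -0.93, -0.86 and -0.89 at 24 h, and -0.60, -0.58 and -0.66 at 48 h. The 4 groups did not overlap in this median, and it stood highest in control, then at 48 h, 24 h and 8 h. Without 48 h replicate 3, 41 members were called lower at 48 h, with IFI35 added at -0.39 (adjusted p = 0.00869). The share of all genes in that fit is not given here.

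**Figure D1:**
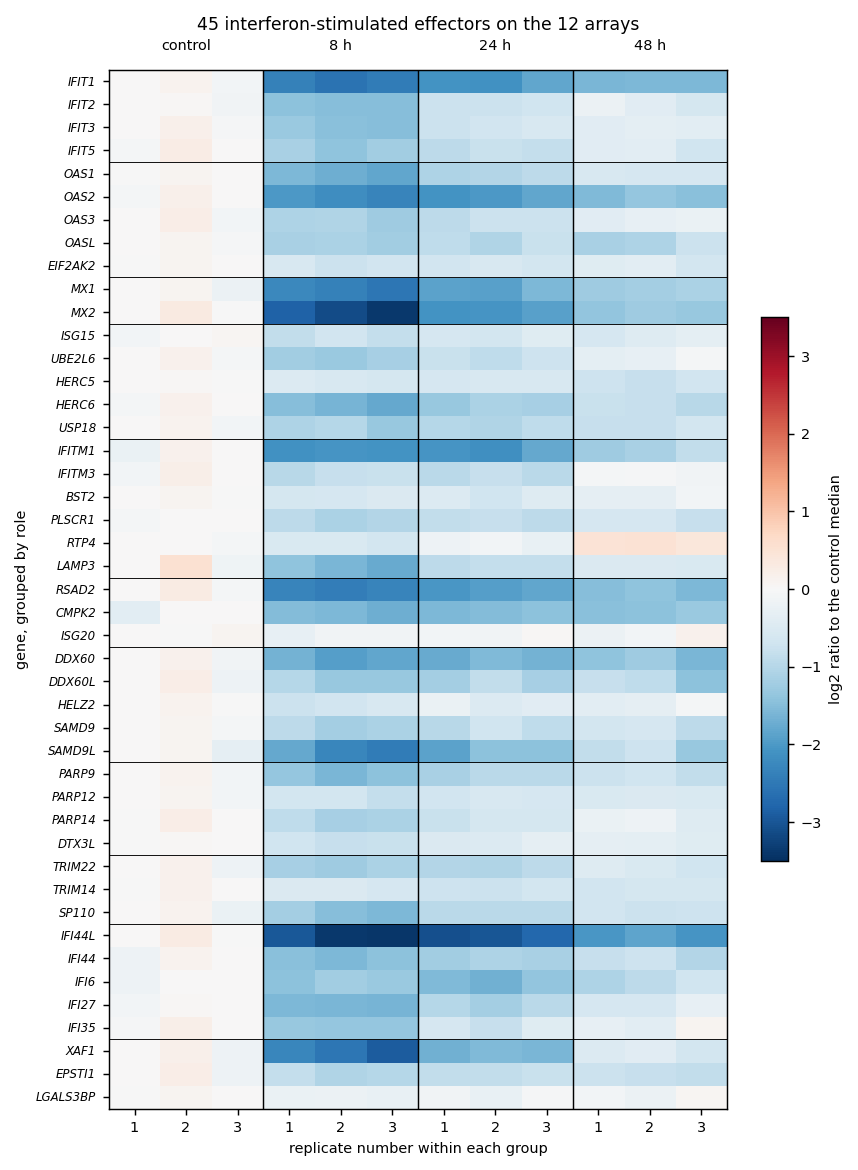
Log2 ratio to the control median (colour) of the 45 measured effectors (vertical axis, grouped by role) on each of the 12 arrays (horizontal axis, replicate number within the group). The 8 h columns are the darkest blue, with IFI44L, MX2, XAF1 and IFIT1 the deepest, and the 48 h columns are paler, with RTP4 above control.

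Between the treated times most members rose towards control. From 8 to 24 h, 23 members rose, where 9.99% of all genes were called higher, and TRIM14 fell, where 9.40% of all genes were called lower. From 24 to 48 h, 23 members rose, where 5.26% of all genes were called higher, and none fell, where 4.86% of all genes were. Between 8 and 48 h directly, 36 members rose, where 15.3% of all genes did, and HERC5 fell, where 14.4% of all genes did. The 3 later arrays lay above the 3 earlier ones in 27 members from 8 to 24 h, in 31 from 24 to 48 h and in 37 from 8 to 48 h, where 16.7%, 11.5% and 18.3% of all genes did so. The median differences were 0.32, 0.33 and 0.70, and over all genes they were 0.00, -0.01 and -0.01. Without 48 h replicate 3 the higher calls were 26, 27 and 37. The shares of all genes without that array are not given here. The change in these counts is therefore not read as a result about the members. With all arrays, 16 members rose in both intervals, 7 rose in the first and had no call in the second, and 7 showed the reverse. A further 12 had no call in either interval, and so did ISG20 and LGALS3BP, while TRIM14 fell in the first and had no call in the second. The shares of all genes in these classes are not given here. A call in one interval and none in the other does not show that the intervals differed, which was not tested.

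Recovery was expressed for each gene as the share of its 8 h difference from control that was gone at the later time, so 0% is the 8 h mean and 100% the control mean. It was computed for the 43 members called lower at 8 h by at least 0.5, that is for all measured members but ISG20 and LGALS3BP. Just inside that limit were RTP4 at -0.56 and HERC5 at -0.56, and just outside it were LGALS3BP at -0.26 and ISG20 at -0.21. The share holds the 8 h arrays in both of its parts and is a description without a test. Its median was 23.9% at 24 h, with a range of -30.7% to 70.7%, and 48.8% at 48 h, with a range of -31.4% to 185%. At 48 h it was over 75% in 5 genes, RTP4, IFITM3, IFI35, XAF1 and UBE2L6. It was under 25% in 7 genes, HERC5, TRIM14, CMPK2, DDX60L, OASL, EPSTI1 and DDX60. Over the 31 members with a fall of at least 1 the medians were 26.3% and 50.6%.

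**Figure D2:**
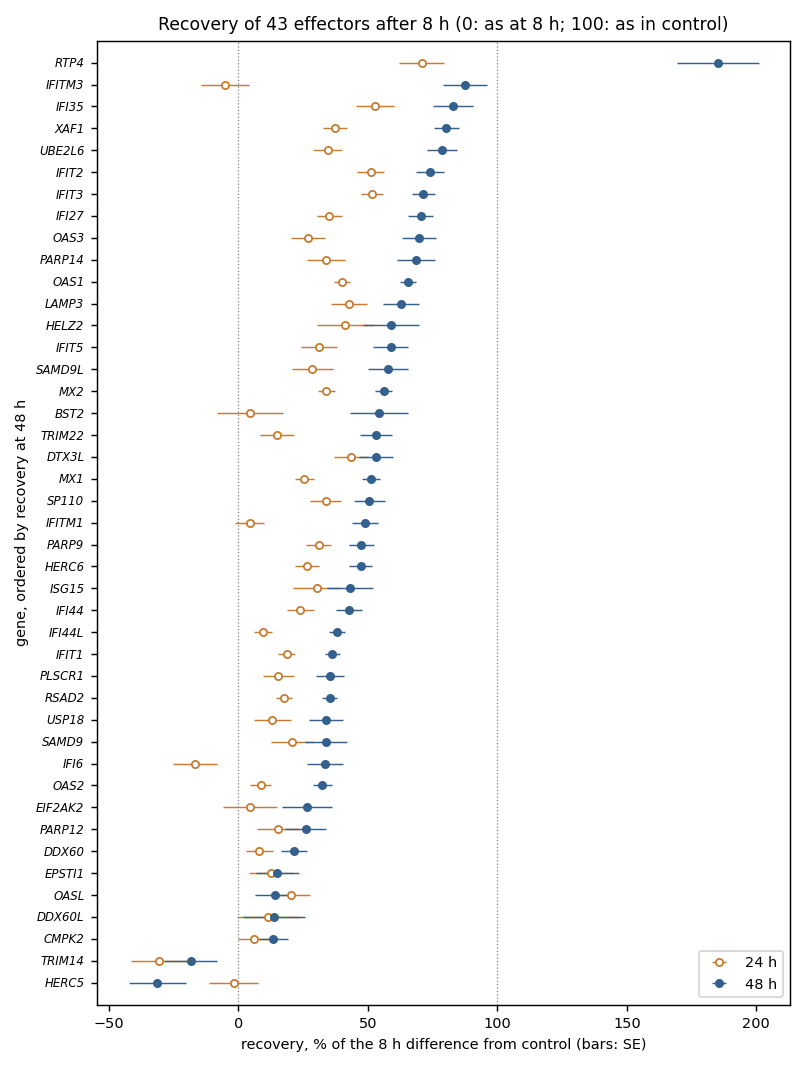
Recovery at 24 h (open circles) and 48 h (filled circles) as a percentage of the 8 h difference from control (horizontal axis, bars for the SE) for 43 effectors (vertical axis, ordered by the 48 h value). The 48 h values run from -31.4% for HERC5 to 185% for RTP4, with a median of 48.8%.

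The IFIT proteins bind RNA that lacks the marks of host messages and keep it from being translated. All 4 measured fell at 8 h, with differences of -2.48 for IFIT1, -1.47 for IFIT3, -1.44 for IFIT2 and -1.32 for IFIT5, and all 4 rose in both later intervals. IFIT1 read 0, 0.14 and -0.11 on the control arrays, -2.37, -2.59 and -2.45 at 8 h, -2.10, -2.11 and -1.83 at 24 h and -1.60, -1.56 and -1.57 at 48 h. No array at one time overlapped those at another, and the order was control, 48 h, 24 h and 8 h from high to low. The IFIT1 difference from control was -2.48 (SE 0.08, adjusted p = 3.17e-09) at 8 h, -2.02 (SE 0.08) at 24 h and -1.58 (SE 0.08, adjusted p = 3.52e-08) at 48 h, so 36.2% of the 8 h difference was gone at 48 h. IFIT5, a cytoplasmic RNA binder that stands next to IFIT1 on the chromosome, read -0.08, 0.26 and 0 on the control arrays, -1.14, -1.40 and -1.23 at 8 h, -0.92, -0.78 and -0.84 at 24 h and -0.39, -0.37 and -0.69 at 48 h. Its groups did not overlap either and stood in the same order as those of IFIT1. IFIT5 differed from control by -1.32 (SE 0.10, adjusted p = 1.27e-06) at 8 h and -0.54 (SE 0.10, adjusted p = 0.00149) at 48 h, with a recovery of 58.8% (SE 6.73). IFIT2 and IFIT3, which act in complexes with IFIT1, had recovered 51.0% and 51.7% at 24 h and 73.9% and 71.4% at 48 h. In 3 of the 4 the second rise lost its call when a single array was left out. The call of 48 h against 24 h was lost for IFIT2 without any 1 array at 24 h or without 48 h replicate 1 or 2 (adjusted p of 0.0614 to 0.093). It was lost for IFIT3 without 24 h replicate 1 or 2 or 48 h replicate 2 (0.0619 to 0.101). For IFIT5 it was lost without any 1 array at 24 h, 48 h replicate 1 or 2, or 8 h replicate 3 (0.0544 to 0.136). IFIT5 also lost its call of 24 h against 8 h without 8 h replicate 2 (0.0602).

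The enzymes that sense double-stranded RNA are OAS1, OAS2 and OAS3, which make oligoadenylates that activate RNase L, OASL, a relative without that activity, and the kinase EIF2AK2 (PKR), which stops translation. All 5 fell at 8 h and were still lower than control at 48 h. OAS2 read -0.07, 0.19 and 0 on the control arrays, -2.01, -2.18 and -2.32 at 8 h, -2.09, -2.02 and -1.83 at 24 h and -1.54, -1.36 and -1.46 at 48 h. Its 8 h and 24 h arrays overlapped, and its 48 h arrays lay between them and control. OAS2 differed from control by -2.21 (SE 0.09, adjusted p = 6.7e-09) at 8 h and -2.02 (SE 0.09) at 24 h, then rose from 24 to 48 h by 0.53 (SE 0.09, adjusted p = 0.00333), and its recovery was 32.4% (SE 3.73) at 48 h. EIF2AK2 read 0.00, 0.10 and 0 on the control arrays, -0.57, -0.75 and -0.66 at 8 h, -0.68, -0.55 and -0.66 at 24 h and -0.42, -0.37 and -0.65 at 48 h. All 9 treated arrays lay below control, and the 3 treated groups overlapped. The EIF2AK2 difference was -0.69 (SE 0.07, adjusted p = 1.97e-05) at 8 h and -0.51 (SE 0.07, adjusted p = 0.000211) at 48 h, and no step between treated times was called. Without 48 h replicate 3, the 48 h values were called higher than those at 24 h, by 0.24 (adjusted p = 0.0307), and at 8 h, by 0.27 (0.00562). OAS1 and OAS3 rose in both intervals and reached 65.4% and 69.7% at 48 h. OASL had a recovery of 20.4% at 24 h and 14.0% at 48 h, with no step called. The OAS3 call from 8 to 24 h was lost without 24 h replicate 2, 24 h replicate 3 or 8 h replicate 3, with adjusted p-values of 0.0657, 0.0722 and 0.0903. OASL gained that call without 24 h replicate 2 (0.0426) or 48 h replicate 3 (0.0192).

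MX1 and MX2 are dynamin-like GTPases that trap viral capsids and ribonucleoproteins. Both fell at 8 h and rose in both later intervals. MX2 read 0, 0.32 and -0.01 on the control arrays, -2.82, -3.14 and -3.37 at 8 h, -2.10, -2.06 and -1.90 at 24 h and -1.38, -1.24 and -1.32 at 48 h. The groups did not overlap. MX2 differed from control by -3.21 (SE 0.12, adjusted p = 3.49e-09) at 8 h, the second largest fall of the 45, and rose between 8 and 48 h by 1.80 (SE 0.12, adjusted p = 2.28e-07). It was still lower than control at 48 h, by 1.41. MX1, its neighbour on the chromosome, fell by 2.35 at 8 h and differed from control by -1.14 at 48 h. Their recoveries at 48 h were 56.0% (SE 3.29) and 51.2% (SE 3.60).

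ISG15 is a ubiquitin-like protein that is joined to other proteins by the conjugating enzyme UBE2L6 and the ligase HERC5, with HERC6 a related ligase, and is removed again by USP18. All 5 fell at 8 h and all 5 were still lower at 48 h. HERC5 was the 1 of them that was not called higher at 48 h than at 8 h. HERC6 read -0.07, 0.14 and 0 on the control arrays, -1.48, -1.64 and -1.78 at 8 h, -1.32, -1.11 and -1.16 at 24 h and -0.79, -0.80 and -0.97 at 48 h. Its arrays at 8 h were the lowest and did not overlap any other group, while those at 24 h and 48 h lay apart from control. The HERC6 difference was -1.65 (SE 0.09, adjusted p = 4.04e-08) at 8 h and -0.87 (SE 0.09, adjusted p = 8.13e-06) at 48 h, and it rose in both intervals. HERC5 read 0, 0.05 and -0.02 on the control arrays, -0.48, -0.57 and -0.62 at 8 h, -0.58, -0.56 and -0.56 at 24 h and -0.72, -0.82 and -0.66 at 48 h. In HERC5 the 48 h arrays lay below the others, and those at 8 h and 24 h overlapped. Its difference from control was -0.56 (SE 0.05, adjusted p = 6.77e-06) at 8 h, -0.57 (SE 0.05) at 24 h and -0.74 (SE 0.05, adjusted p = 4.99e-07) at 48 h. Between 8 and 48 h HERC5 fell by a further 0.18 (SE 0.05, adjusted p = 0.0212), and it was the only member called lower in that comparison. That call was lost without 8 h replicate 1 (adjusted p = 0.0897) or 48 h replicate 2 (0.103). Without 48 h replicate 3, HERC5 was also called lower at 48 h than at 24 h (-0.20, adjusted p = 0.0318). UBE2L6 had recovered 78.5% at 48 h, ISG15 42.99% and USP18 33.8%. ISG15 and USP18 were called higher at 48 h than at 8 h and in neither interval alone. ISG15 gained the call of 24 h against 8 h without 8 h replicate 2, 24 h replicate 2, 48 h replicate 1 or 48 h replicate 3, at adjusted p-values of 0.0314 to 0.0455. UBE2L6 remained lower than control at 48 h by 0.27 (adjusted p = 0.0239). It was not called when control replicate 1 (0.052) or 2 (0.116), or 48 h replicate 1 (0.0918) or 2 (0.0818), was left out. HERC6 lost its call of 48 h against 24 h without 24 h replicate 1 or 3, or 48 h replicate 1 or 2, at adjusted p-values of 0.0522 to 0.0984.

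Among membrane and trafficking proteins, IFITM1 and IFITM3 block the fusion of virus with cell membranes, BST2 (tetherin) holds budding virus on the cell surface, and PLSCR1 moves phospholipids between membrane leaflets. LAMP3 is a lysosomal membrane protein, and RTP4 carries receptors to the cell surface. All 6 fell at 8 h and all 6 were higher at 48 h than at 8 h. IFITM1 read -0.24, 0.15 and 0 on the control arrays, -2.12, -2.05 and -2.09 at 8 h, -2.05, -2.16 and -1.79 at 24 h and -1.25, -1.14 and -0.86 at 48 h. The arrays at 8 h and 24 h overlapped, and those at 48 h were higher than both. IFITM1 differed from control by -2.06 (SE 0.12, adjusted p = 8.73e-08) at 8 h and -1.97 (SE 0.12) at 24 h, and rose by 0.92 (SE 0.12, adjusted p = 0.000333) from 24 to 48 h. IFITM3, its neighbour, differed by -0.88 at 8 h, -0.93 at 24 h and -0.11 (adjusted p = 0.401) at 48 h. RTP4 read 0.02, 0 and -0.06 on the control arrays, -0.53, -0.55 and -0.65 at 8 h, -0.18, -0.09 and -0.26 at 24 h and 0.48, 0.51 and 0.41 at 48 h. Its 48 h arrays lay above all control arrays, and its 24 h arrays lay between those at 8 h and control. The RTP4 difference from control was -0.56 (SE 0.06, adjusted p = 1.07e-05) at 8 h, -0.16 (SE 0.06, adjusted p = 0.0632) at 24 h and 0.48 (SE 0.06, adjusted p = 3.57e-05) at 48 h. RTP4 was the only member called higher than control at any time. The 24 h value was called lower without 24 h replicate 2 (adjusted p = 0.0307) or 48 h replicate 3 (0.0451). LAMP3 and PLSCR1 were still lower than control at 48 h, by 0.64 and 0.64. BST2 was lower by 0.28 (adjusted p = 0.0184) at 48 h, and this was not called without control replicate 2 (0.0819) or 48 h replicate 1 (0.0669) or 2 (0.0741). The BST2 rise from 24 to 48 h was not called without 24 h replicate 1 (0.0507) or 2 (0.0946) or 48 h replicate 3 (0.066). Single arrays gave further calls: LAMP3 rose from 24 to 48 h without control replicate 2 (0.0186), and PLSCR1 rose in both intervals without 48 h replicate 3 (0.0435 and 0.00929).

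**Figure D3:**
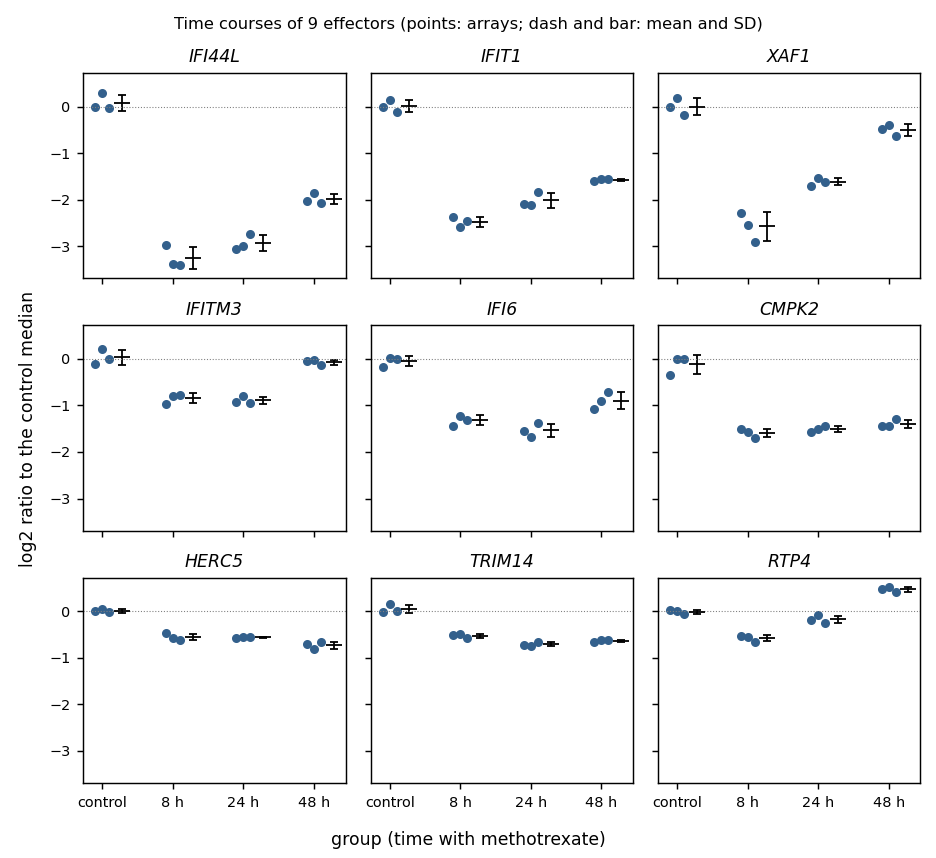
Log2 ratio to the control median (vertical axis) of 9 effectors by group (horizontal axis), with a point for each array and the mean and SD beside them. RTP4 ends above control and IFITM3 at control, IFI44L, IFIT1, IFI6 and XAF1 rise part of the way, CMPK2 and TRIM14 stay near their 8 h level, and HERC5 is lowest at 48 h.

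RSAD2 (viperin) makes a nucleotide that ends viral RNA chains, its neighbour CMPK2 is a mitochondrial nucleotide kinase, and ISG20 is an exonuclease that degrades RNA. RSAD2 and CMPK2 fell at 8 h and were lower at all 3 times. RSAD2 read 0, 0.28 and -0.05 on the control arrays, -2.30, -2.41 and -2.32 at 8 h, -2.03, -1.92 and -1.81 at 24 h and -1.49, -1.42 and -1.58 at 48 h. Its treated arrays all lay below control, and the groups followed each other upward from 8 to 48 h without overlap. It differed from control by -2.42 (SE 0.08, adjusted p = 3.17e-09) at 8 h and -1.57 (SE 0.08, adjusted p = 3.85e-08) at 48 h and rose in both intervals. CMPK2 differed by -1.48 (SE 0.09) at 8 h, -1.39 (SE 0.09) at 24 h and -1.28 (SE 0.09) at 48 h, with no step called. It was called higher at 48 h than at 8 h without control replicate 1 (0.20, adjusted p = 0.0306). Their recoveries at 48 h were 35.2% (SE 3.06) for RSAD2 and 13.5% (SE 5.72) for CMPK2. ISG20 read 0, 0.00 and 0.08 on the control arrays, -0.28, -0.13 and -0.13 at 8 h, -0.10, -0.12 and 0.04 at 24 h and -0.21, -0.08 and 0.16 at 48 h. At 8 h its arrays lay below control, and at 24 h and 48 h they overlapped it. Its difference from control was -0.21 (SE 0.08, adjusted p = 0.0949) at 8 h, -0.09 (adjusted p = 0.580) at 24 h and -0.07 (adjusted p = 0.646) at 48 h. The 8 h difference of ISG20 was called with the replicate number as a block (adjusted p = 0.0262), when the control and 8 h arrays were fitted alone (0.024), with array weights (-0.16, 0.0365) and without 48 h replicate 3, its highest array at 48 h (0.0199). It was not called without any other single array, at adjusted p-values of 0.0544 to 0.28.

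DDX60 and DDX60L are helicase relatives, HELZ2 is a helicase that acts with nuclear receptors, and SAMD9 and SAMD9L are a neighbouring pair that restrict poxviruses. All 5 fell at 8 h and all 5 were still lower at 48 h. SAMD9L read 0, 0.08 and -0.31 on the control arrays, -1.80, -2.29 and -2.45 at 8 h, -1.87, -1.43 and -1.44 at 24 h and -0.86, -0.72 and -1.32 at 48 h. Its 8 h and 24 h arrays overlapped at their edge and its 48 h arrays were spread widely, with replicate 3 the lowest of them. SAMD9L differed from control by -2.11 (SE 0.19, adjusted p = 4.54e-06) at 8 h and -0.89 (SE 0.19, adjusted p = 0.00322) at 48 h, and rose between these times by 1.22 (SE 0.19, adjusted p = 0.000233). Its call of 24 h against 8 h (0.60, adjusted p = 0.0390) was lost without control replicate 1, 8 h replicate 2 or 3, or 24 h replicate 2 or 3, at adjusted p-values of 0.0534 to 0.169. Without 48 h replicate 3 or 8 h replicate 1, SAMD9L was called higher at 48 h than at 24 h (0.0119 and 0.0316). HELZ2 read 0, 0.13 and -0.01 on the control arrays, -0.75, -0.67 and -0.57 at 8 h, -0.23, -0.49 and -0.40 at 24 h and -0.38, -0.30 and -0.06 at 48 h. Its treated arrays lay below control, and the 24 h and 48 h arrays overlapped. HELZ2 differed from control by -0.70 (SE 0.09, adjusted p = 6.91e-05) at 8 h and -0.29 (SE 0.09, adjusted p = 0.0273) at 48 h. The 48 h call needed control replicates 1 and 2 and 48 h replicates 1 and 2 (adjusted p of 0.0525 to 0.115 without each). The rise of HELZ2 from 8 to 24 h, 0.29 (adjusted p = 0.0347), lost its call without 8 h replicate 1 or 2 or 24 h replicate 1 or 3 (0.0762 to 0.157). DDX60 differed from control by -1.81 (SE 0.10) at 8 h and -1.42 (SE 0.10) at 48 h. DDX60L differed by -1.23 (SE 0.16) and -1.06 (SE 0.16), and SAMD9 by -1.08 (SE 0.10) and -0.72 (SE 0.10). DDX60 and SAMD9 were called higher at 48 h than at 8 h, SAMD9 not without 8 h replicate 2 (0.0626) or 48 h replicate 2 (0.0604). Without 48 h replicate 3, DDX60 rose from 24 to 48 h (0.0417) and DDX60L from 8 to 48 h (0.0424).

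PARP9 and DTX3L form a complex that joins ADP-ribosylation and ubiquitin transfer, and PARP12 and PARP14 are ADP-ribosyltransferases. All 4 fell at 8 h, were still lower at 48 h and were higher at 48 h than at 8 h. PARP9 read 0, 0.13 and -0.10 on the control arrays, -1.36, -1.61 and -1.42 at 8 h, -1.12, -0.95 and -0.95 at 24 h and -0.74, -0.69 and -0.87 at 48 h. Its groups did not overlap, with 8 h lowest, then 24 h, 48 h and control. PARP9 differed from control by -1.47 (SE 0.08, adjusted p = 6.65e-08) at 8 h and -0.77 (SE 0.08, adjusted p = 1.42e-05) at 48 h. DTX3L, which shares its promoter region with PARP9, differed by -0.77 (SE 0.06) and -0.36 (SE 0.06). The recoveries of this pair at 24 h were 30.9% (SE 4.88) for PARP9 and 43.5% (SE 6.47) for DTX3L. At 48 h they were 47.4% (SE 4.76) and 53.1% (SE 6.46). PARP12 read 0, 0.09 and -0.08 on the control arrays, -0.65, -0.64 and -0.83 at 8 h, -0.67, -0.55 and -0.58 at 24 h and -0.53, -0.51 and -0.53 at 48 h. All 9 treated arrays lay below control, those at 8 h and 24 h overlapped, and those at 48 h lay above both. PARP12 differed from control by -0.71 (SE 0.06, adjusted p = 3.94e-06) at 8 h and -0.53 (SE 0.06, adjusted p = 4e-05) at 48 h, and by 0.18 (SE 0.06, adjusted p = 0.0391) between 8 and 48 h. The last call was lost without control replicate 1, 8 h replicate 3, 24 h replicate 3 or any array at 48 h, at adjusted p-values of 0.052 to 0.18. PARP14 rose in both intervals and had recovered 68.6% at 48 h. It lost its first rise without 8 h replicate 2 (0.0509), its second without 24 h replicate 1 (0.0791) or 48 h replicate 1 (0.0593) or 2 (0.0705), and its 48 h difference from control without control replicate 2 (0.0667). PARP9 rose from 24 to 48 h without 48 h replicate 3 (0.0416).

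TRIM22 and TRIM14 belong to the tripartite motif proteins, of which TRIM22 restricts several viruses and TRIM14 is an adaptor in signalling from viral RNA, and SP110 is a nuclear body protein. All 3 fell at 8 h and were still lower at 48 h. SP110 read 0, 0.13 and -0.22 on the control arrays, -1.19, -1.49 and -1.56 at 8 h, -0.95, -0.95 and -0.94 at 24 h and -0.68, -0.75 and -0.72 at 48 h. Its 8 h arrays were the lowest, and those at 24 h lay between 8 h and 48 h. SP110 differed from control by -1.38 (SE 0.09, adjusted p = 4.53e-07) at 8 h and -0.68 (SE 0.09, adjusted p = 0.000144) at 48 h, and rose from 8 to 24 h by 0.47 (SE 0.09, adjusted p = 0.00327). TRIM14 read -0.01, 0.15 and 0 on the control arrays, -0.51, -0.50 and -0.58 at 8 h, -0.72, -0.75 and -0.65 at 24 h and -0.66, -0.62 and -0.63 at 48 h. All 9 treated arrays lay below control, and the 24 h arrays were below those at 8 h. It differed from control by -0.58 (SE 0.05, adjusted p = 6.17e-06) at 8 h, -0.76 (SE 0.05) at 24 h and -0.68 (SE 0.05, adjusted p = 1.04e-06) at 48 h. TRIM14 fell from 8 to 24 h by 0.18 (adjusted p = 0.0332), a call lost without 8 h replicate 1 or 2 or 24 h replicate 1 or 2, at adjusted p-values of 0.0909 to 0.115. TRIM22 differed by -1.16 (SE 0.08) at 8 h, -0.99 (SE 0.08) at 24 h and -0.54 (SE 0.08) at 48 h, and its rise was called from 24 to 48 h.

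The IFI genes are named for their induction by interferon. IFI44L and IFI44 are neighbours with cytoplasmic products, IFI6 is a membrane protein of the endoplasmic reticulum, IFI27 acts in mitochondria and IFI35 is a leucine zipper protein. All 5 fell at 8 h and all 5 were higher at 48 h than at 8 h. IFI44L read 0, 0.28 and -0.03 on the control arrays, -2.98, -3.39 and -3.39 at 8 h, -3.07, -3.00 and -2.74 at 24 h and -2.03, -1.86 and -2.07 at 48 h. Its 8 h and 24 h arrays overlapped and its 48 h arrays lay above both and below control. IFI44L had the largest fall of the 45 at 8 h, -3.34 (SE 0.12, adjusted p = 3.49e-09), and at 48 h it was at -2.07 (SE 0.12, adjusted p = 1e-07). It rose from 24 to 48 h by 0.95 (SE 0.12, adjusted p = 0.000365), and without 8 h replicate 1 its step from 8 to 24 h was called too (adjusted p = 0.0143). IFI6 read -0.18, 0.02 and 0 on the control arrays, -1.44, -1.22 and -1.31 at 8 h, -1.56, -1.67 and -1.38 at 24 h and -1.08, -0.92 and -0.70 at 48 h. Its 24 h arrays reached lower than those at 8 h, with an overlap, and the 48 h arrays were the highest of the treated. The IFI6 difference from control was -1.27 (SE 0.10, adjusted p = 1.33e-06) at 8 h, -1.48 (SE 0.10) at 24 h and -0.84 (SE 0.10, adjusted p = 3.6e-05) at 48 h, and the step from 8 to 24 h was -0.21 (adjusted p = 0.173). IFI27 had recovered 35.1% at 24 h and 70.3% at 48 h, and IFI44 23.9% and 42.8%. IFI44 was called higher at 48 h than at 24 h without control replicate 1 (0.0417), control replicate 2 (0.0482) or 48 h replicate 3 (0.00949). IFI35 differed from control by -1.40 (SE 0.12) at 8 h, -0.66 (SE 0.12) at 24 h and -0.24 (adjusted p = 0.174) at 48 h. Its call of 48 h against 24 h (0.42, adjusted p = 0.0387) was lost without any one of 8 arrays, at adjusted p-values of 0.0505 to 0.136. These were control replicate 1, all 3 at 8 h, 24 h replicates 1 and 2 and 48 h replicates 1 and 3.

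The last 3 members are XAF1, a pro-apoptotic protein that binds an inhibitor of apoptosis, EPSTI1, a protein first named from contacts of epithelium and stroma, and LGALS3BP, a secreted glycoprotein that binds galectin. XAF1 read 0, 0.19 and -0.19 on the control arrays, -2.28, -2.54 and -2.90 at 8 h, -1.70, -1.54 and -1.61 at 24 h and -0.48, -0.40 and -0.64 at 48 h. The 4 groups did not overlap, and XAF1 stood nearer control at each later time. Its difference from control was -2.57 (SE 0.13, adjusted p = 4.04e-08) at 8 h, -1.61 (SE 0.13) at 24 h and -0.51 (SE 0.13, adjusted p = 0.0127) at 48 h, and the rise of 2.07 (SE 0.13) from 8 to 48 h was the largest of the 45. Without control replicate 2 the 48 h difference was not called (adjusted p = 0.0658). EPSTI1 read 0, 0.23 and -0.18 on the control arrays, -0.84, -1.04 and -0.995 at 8 h, -0.87, -0.86 and -0.79 at 24 h and -0.76, -0.81 and -0.86 at 48 h. All 9 treated arrays lay below control and the treated groups overlapped. EPSTI1 differed from control by -0.98 (SE 0.09, adjusted p = 4.58e-06) at 8 h and -0.83 (SE 0.09, adjusted p = 1.46e-05) at 48 h, with no step called. LGALS3BP differed by -0.17 (adjusted p = 0.130) at 24 h and -0.11 (adjusted p = 0.342) at 48 h, and was called higher at 48 h than at 8 h without 48 h replicate 2 (0.21, adjusted p = 0.0454).

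The rest of the interferon pathway was followed on 65 listed genes outside the effectors, of which 58 were measured. At 8 h, 21 were lower and 2 higher, where 12.0% and 12.1% of all genes were. At 24 h, 13 were lower and 3 higher, where 8.02% and 8.69% of all genes were. At 48 h, 12 were lower, where 12.3% of all genes were, and 8 were higher, a share close to the 13.0% of all genes. The median difference was -0.09, -0.04 and -0.01 at these times. From 8 to 48 h, 25 of the 58 rose and 3 fell, where 15.3% and 14.4% of all genes did. Of the 16 ligands measured, 14 were not called at 8 h and 2 were lower, a share close to the 12.0% of all genes. IFNB1, interferon beta, read -0.01, 0 and 0.03 on the control arrays, -0.05, 0.10 and 0.01 at 8 h, 0.01, -0.02 and -0.02 at 24 h and -0.02, 0.00 and 0.03 at 48 h, and its groups overlapped at all times. Its difference at 8 h was 0.01 (adjusted p = 0.887). IFNE, an interferon of epithelia, fell by 0.43 (adjusted p = 0.00208) at 8 h. IFNL1, an interferon lambda, fell by 0.36 (adjusted p = 0.00335) at 8 h and was lower by 0.25 at 48 h, a call that did not pass without control replicate 3 (0.116), 48 h replicate 1 (0.0865) or 2 (0.0661). Since levels are unknown, whether these ligands were expressed at all could not be read from the table.

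Of the 6 receptor chains, IFNGR1, the ligand-binding chain for interferon gamma, rose at all 3 times, by 0.40, 0.42 and 0.51. IFNGR2, its partner chain, fell by 0.35 (adjusted p = 0.000282) at 8 h. IL10RB, the chain shared by the interferon lambda receptor, fell by 0.30 at 8 h and was above control by 0.28 at 48 h. IFNLR1, the other chain of that receptor, rose by 0.26 (adjusted p = 0.0275) at 48 h, a call that did not pass without control replicate 1 (0.109) or 3 (0.0619), 48 h replicate 2 (0.095) or 3 (0.0639). The signalling factors were led by IRF9, the DNA-binding part of ISGF3. IRF9 read 0.00, 0.12 and 0 on the control arrays, -1.60, -1.64 and -1.63 at 8 h, -0.92, -0.88 and -0.71 at 24 h and -0.45, -0.52 and -0.32 at 48 h, with no overlap between groups. It differed from control by -1.67 (SE 0.07, adjusted p = 5.04e-09) at 8 h, -0.88 (SE 0.07) at 24 h and -0.47 (SE 0.07, adjusted p = 0.000194) at 48 h. IRF1, a factor induced by interferon gamma, differed by -0.75 (SE 0.06, adjusted p = 2.04e-06) at 8 h, -0.17 (adjusted p = 0.0823) at 24 h and -0.05 (adjusted p = 0.653) at 48 h. The 24 h difference of IRF1 was called without 48 h replicate 3 (0.0377). IRF7, which amplifies the response, differed by -0.66 (SE 0.10) at 8 h and -0.45 (SE 0.10) at 24 h. Its 48 h value of -0.30 (adjusted p = 0.0483) was not called without any one of 9 of the 12 arrays, at adjusted p-values of 0.0604 to 0.176: every array but 24 h replicates 2 and 3 and 48 h replicate 3. IRF3, which is activated by viral nucleic acid, rose by 0.41, 0.34 and 0.30. Among the 3 kinases, JAK1 fell by 0.30 (adjusted p = 0.0160) at 8 h, a call that did not pass without control replicate 2 (0.0748), 8 h replicate 2 (0.0607) or 3 (0.0659). JAK1 was higher at 48 h than at 8 h by 0.36 (adjusted p = 0.00447). TYK2 rose by 0.30 (adjusted p = 0.00508) at 48 h, and JAK2 was not called against control.

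The sensors of nucleic acid are themselves targets of interferon in part, and 7 of the 11 fell at 8 h, where 12.0% of all genes did. RIGI, a sensor of viral RNA ends, read 0.00, 0.18 and 0 on the control arrays, -1.91, -2.11 and -2.15 at 8 h, -1.70, -1.57 and -1.57 at 24 h and -1.32, -1.34 and -1.75 at 48 h. The treated arrays all lay far below control, and those at 24 h and 48 h overlapped. RIGI differed from control by -2.12 (SE 0.11, adjusted p = 2.97e-08) at 8 h and -1.53 (SE 0.11, adjusted p = 4.02e-07) at 48 h. IFIH1 (MDA5), a sensor of long double-stranded RNA, differed by -1.57 (SE 0.12), -1.31 (SE 0.12) and -1.02 (SE 0.12) at the 3 times. TLR3, an endosomal sensor of double-stranded RNA, differed by -1.63 (SE 0.11), -0.77 (SE 0.11) and -0.50 (SE 0.11). IFI16, a sensor of DNA in the nucleus, differed by -1.14 (SE 0.08), -0.84 (SE 0.08) and -0.78 (SE 0.08). STING1, the adaptor for cytosolic DNA, fell by 0.46 at 8 h and was above control by 0.33 at 48 h. MAVS, the adaptor of RIGI and IFIH1, rose by 0.23 at 24 h and 0.21 at 48 h. Of 10 genes better known as targets of interferon gamma, 6 fell at 8 h, again beside 12.0% of all genes. The chemokine CXCL10 differed from control by -1.24 (SE 0.09), -1.24 (SE 0.09) and -0.75 (SE 0.09), and CXCL11 by -0.90 (SE 0.10), -0.76 (SE 0.10) and -0.86 (SE 0.10). TAP1, which carries peptides for antigen presentation, fell by 0.77 at 8 h, was lower by 0.54 at 24 h and was at -0.13 (adjusted p = 0.292) at 48 h. PSMB9, a subunit of the immunoproteasome, fell by 0.79 at 8 h and was above control by 0.37 at 48 h. WARS1, a tryptophan transfer RNA ligase, fell by 0.81 at 8 h and stayed lower by 0.39 and 0.64. Of 4 inhibitors of the pathway, PTPN2, a phosphatase that damps JAK signalling, was called, lower by 0.23 at 48 h, and SOCS1, SOCS3 and PIAS1 were not called against control.

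**Figure D4:**
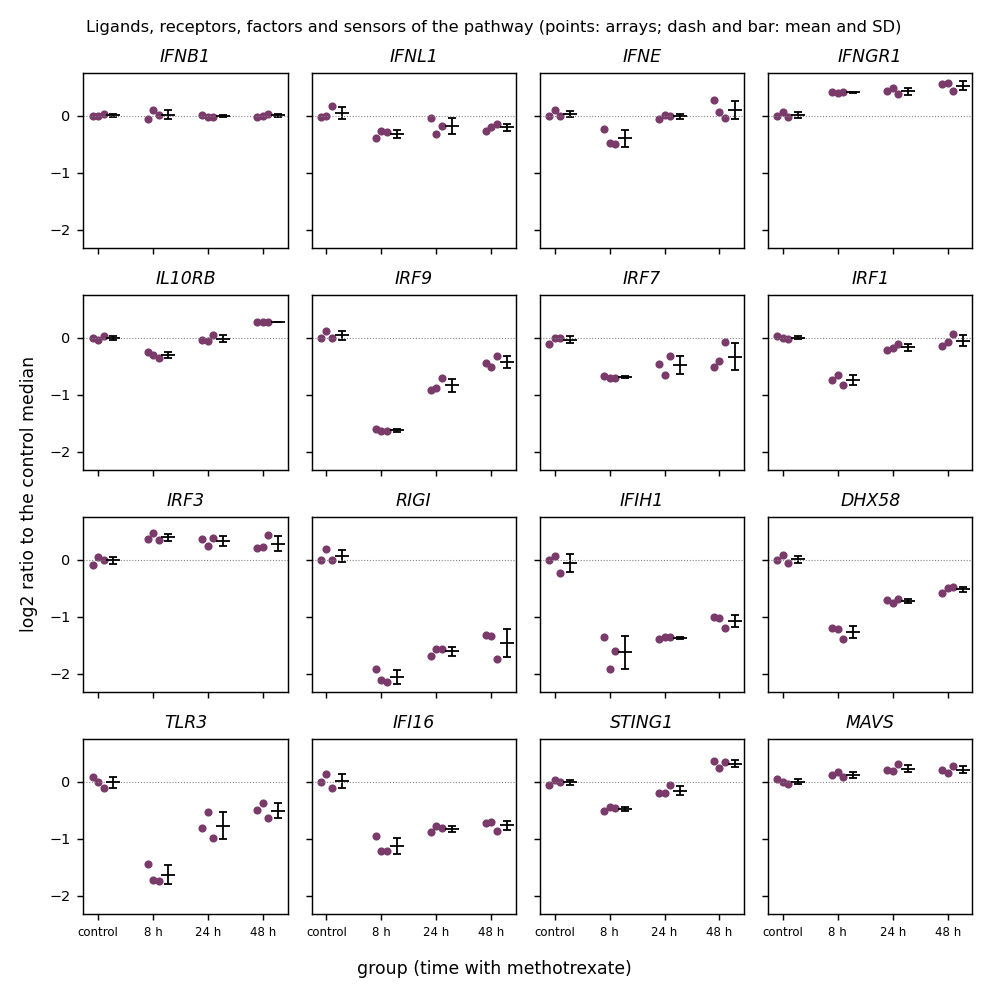
Log2 ratio to the control median (vertical axis) of 16 ligand, receptor, factor and sensor genes by group (horizontal axis), with a point for each array and the mean and SD beside them. IRF9, RIGI, IFIH1, DHX58, TLR3 and IFI16 are lowest at 8 h and still below control at 48 h, while IFNB1 stays at control and IL10RB and STING1 end above it.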

How the data were processed

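Expression was measured in 12 samples of HT29 cells in 4 groups of 3, with the groups and replicate numbers taken from the sample titles. The deposited table holds log2 values of probe sets. The authors used RMA (background correction, normalization across arrays and a summary over the probes of a set) and the build hg19, per the submitters' processing notes. In the deposited table the control median was 0 in all 28869 probe sets, and no label describes that centring. No label gives the log base, which was taken as 2 because RMA returns log2 values.

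Of these probe sets, 19310 had 1 gene symbol in the platform annotation, and their means per gene gave the 18377 genes tested. The 1752 that name several genes stayed out of the gene tests. A single model of all 12 arrays was made in limma 3.58.1 (R 4.3.3; lmFit, contrasts.fit, eBayes; 8 residual and 4.71 prior degrees of freedom), with 6 comparisons between groups, two-sided, and Benjamini-Hochberg adjustment over all genes of a comparison. SEs are limma's moderated SEs, and those of recovery come from the delta method. The fit was tested on simulated data, but no outcome of that test is given here, so it adds nothing to the p-values. Depth does not apply to arrays, and 3 arrays a group limit the precision. Figures were made with Python 3.11.15, pandas 2.3.3 and matplotlib 3.10.9.

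The members, their role groups, the pathway and marker lists and the tests were chosen with earlier results of these data known. All measured members are named. Values for every array are given for the members with the largest and smallest difference at 8 h in each role group (1 in groups under 4), the 4 largest and 4 smallest differences between 48 h and 8 h, and members not called at 8 h. Of each pathway list up to 3 called genes with the largest difference at each time are named, with IRF9, IRF7, IRF1 and IFNB1. STING1, MAVS, PSMB9 and DHX58 lie outside that rule and were chosen after their values were seen. JAK1 lies outside it too, as do JAK2, SOCS1, SOCS3 and PIAS1, which are named as not called against control.

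Alternatives were the replicate block, array weights, centring of arrays, fits of only the 2 groups compared, a robust prior, probe sets with several genes, genes with an SD above the median, stricter thresholds and leaving out each array.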

Additional observations from a re-analysis of the deposited data

Results flagged for a closer look

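RTP4 was lower than control at 8 h, at -0.56, and higher than control at 48 h, at 0.48. The difference between the 2 times was tested and was 1.04 (adjusted p = 4.04e-08 in limma), and all 3 arrays at 48 h lay above those at 8 h. It was the only one of the 45 measured effectors with a call in both directions against control.

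Of the other genes of the pathway, 3 had calls in both directions too. The share of all genes with calls in both directions is not given here. PSMB9 differed by 1.16 between 48 h and 8 h, STING1 by 0.79 and IL10RB by 0.58, each lower than control at 8 h and higher at 48 h. The same control arrays stand in both of these comparisons. The size of the difference between the times does not use them, but its p-value does, through the pooled spread.

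A probe set that names GBP1P1, GBP3 and GBP1, and so was kept out of the gene tests, was lower at 8 h by a log2 difference of -0.70 (adjusted p = 8.71e-05 in limma, over the 1752 probe sets that name several genes). Its arrays read 0, 0.06 and -0.15 in control, -0.53, -0.80 and -0.86 at 8 h, -0.15, -0.11 and -0.01 at 24 h and -0.23, -0.18 and -0.21 at 48 h. Which of the 3 genes the signal came from cannot be told apart. A second probe set, which names USP41P and USP18, differed from control by -1.40 at 8 h (adjusted p = 1.89e-06 in limma).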

How the results depend on the processing

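No direction of a member count or member median was reversed under any alternative run. With array weights the median difference of the members from control was -1.39 at 8 h and -0.998 at 24 h. It was 0.37 between 48 h and 24 h and 0.77 between 48 h and 8 h. The weighted fit called 29 members higher at 24 h than at 8 h, 33 at 48 h than at 24 h and 40 at 48 h than at 8 h. The unweighted fit called 23, 23 and 36. The weights of 48 h replicates 1, 2 and 3 were 0.80, 6.52 and 0.20, so the weighted 48 h values rest mostly on replicate 2. Shares over all genes under the weights are not given here. When at least a 1.5-fold change was also required, 25 members were lower at 48 h, 9 were higher at 24 h than at 8 h and 8 were higher at 48 h than at 24 h. Without single replicates, the count of calls ranged from 43 to 45 at 8 h, 42 to 43 at 24 h, 35 to 41 at 48 h, 20 to 26 for 24 h against 8 h, 16 to 27 for 48 h against 24 h and 35 to 37 for 48 h against 8 h. In the same order the medians ranged from -1.34 to -1.22, -0.98 to -0.84, -0.71 to -0.60, 0.26 to 0.37, 0.31 to 0.36 and 0.66 to 0.75. The labels give the replicate numbers no further meaning, and same-numbered arrays were not taken as pairs: their deviations correlated above 0.1 in 11 of 18 pairs, and an array matched its own number best in 14 of 36 checks. With the replicate number as a block, 45, 43 and 40 members were lower than control, and 24, 25 and 36 were higher in the steps between treated times. Of 5940 results of single members under an alternative, 5699 kept their side of the threshold, 171 lost the call and 70 gained it. No result called in either fit changed direction, and the direction of results without a call was not counted. The 5940 include the fit of each probe set on its own, which leaves the differences of the members as they were. The 3 arrays a group, pooled spread, unknown levels and no time-matched untreated arrays limit these values.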

Other observations

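Of the 46 listed genes, 23 lie next to another member among the protein-coding genes of the RefSeq table. HERC6 differed from control by -1.65 at 8 h and -0.87 at 48 h, and HERC5 beside it by -0.56 and -0.74. RSAD2 had a recovery of 35.2% at 48 h and CMPK2 13.5%. SAMD9L stood at 57.7% and SAMD9 at 33.8%, and OAS1 and OAS3 stood at 65.4% and 69.7% where OAS2 stood at 32.4%. IFIT2 and IFIT3 stood at 73.9% and 71.4%, and PARP9 and DTX3L at 47.4% and 53.1%. IFITM1 stood at 48.8% and IFITM3 at 87.6%, MX2 at 56.0% and MX1 at 51.2%, and IFIT1 at 36.2% and IFIT5 at 58.8%. IFI44L and IFI44 stood at 37.99% and 42.8%, and DDX60 and DDX60L at 21.4% and 13.8%. The difference between neighbours was not tested, and a recovery is a share of falls of different size.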
